A study of Mus musculus with 40 samples.

Results

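CTCF peaks that stood alone were those sharing no base with any peak of SMARCA5, PU.1 or C/EBPb in mouse bone marrow-derived macrophages. The members were chosen from peak positions on chromosomes 1 to 19 and X, by setting the consensus list of CTCF peaks against the other 3 consensus lists. Of 25280 CTCF peaks on these chromosomes, 13389 met the rule, or 53.0% (95% Wilson interval 52.3 to 53.6, counting error only). The other 27 of the 25307 CTCF peaks lay on chromosome Y or on unplaced sequence and were left out. The absence of overlap is the rule itself and is not a result, and no test is given below, because peaks of 1 list are not replicates.

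CTCF is a zinc-finger protein that binds a long DNA motif, halts loop extrusion by cohesin and marks insulators and the anchors of chromatin loops. Many of its sites are occupied in most cell types. SMARCA5 (SNF2H) is the ATPase of ISWI remodelling complexes, which slide and space nucleosomes, and regular nucleosome arrays beside CTCF sites are known to depend on it in other cells. PU.1 and C/EBPb bind macrophage enhancers and promoters, where they open chromatin and set cell identity.

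CTCF, PU.1 and C/EBPb were each immunoprecipitated from untreated wild-type and Smarca5-/- cells, with 2 libraries per genotype. SMARCA5 was profiled in 8 libraries after micrococcal nuclease digestion, from both genotypes without stimulus and 2 h into LPS treatment at 10 ng/ml. Both genotypes carried Csf1r-Cre, which acts in the macrophage lineage. The deleted cells also carried Smarca5lox/lox, and 4-hydroxytamoxifen was given daily over the 7 days of culture. Whether the libraries came from separate animals is not given in the sources used here. H3K27ac libraries were not analysed here.

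Each protein had 1 consensus list on mm39, and 0 value columns or peak names gave a library. The members may therefore have been called in wild-type cells, in Smarca5-deleted cells or in both, and the same holds for the SMARCA5 peaks they were set against. Read depth per library is unknown, so a site without a listed peak cannot be taken as unbound. Marker genes of macrophages were not checked, since the peaks carry no gene names.

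Among the CTCF peaks that did meet another list, 5962 met SMARCA5 only, 1242 PU.1 only and 342 C/EBPb only. A further 2446 met SMARCA5 and PU.1, 553 SMARCA5 and C/EBPb, 223 PU.1 and C/EBPb, and 1123 all 3. The peaks alone were thus the most numerous of the 8 classes, followed by those with SMARCA5 only at 23.6%.

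CTCF peaks alone were weaker than the peaks of the other classes in both of the authors' measures of strength, although the ranges overlapped widely. Their fold enrichment, a ratio over local background, had a median of 11.0, with the middle 50% between 8.98 and 13.4. In CTCF peaks with SMARCA5 only the median was 12.3 (9.62 to 15.2), and in those with SMARCA5 and PU.1 it was 13.3 (9.99 to 17.0). The gap was wider in the -log10 of the q-value, which also grows with the number of reads at a peak. Its median was 42.8 for peaks alone (28.4 to 66.2), 64.3 with SMARCA5 only (40.6 to 93.96) and 77.5 with SMARCA5 and PU.1 (43.2 to 125.7). Without SMARCA5, peaks with PU.1 only had a median -log10 q of 63.99, so the lower value of peaks alone was seen against that class too. On each chromosome taken by itself, the median fold enrichment, -log10 q and width of peaks alone were below those of peaks with SMARCA5 only, on 20 of 20 chromosomes for each measure.

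**Figure D1:**
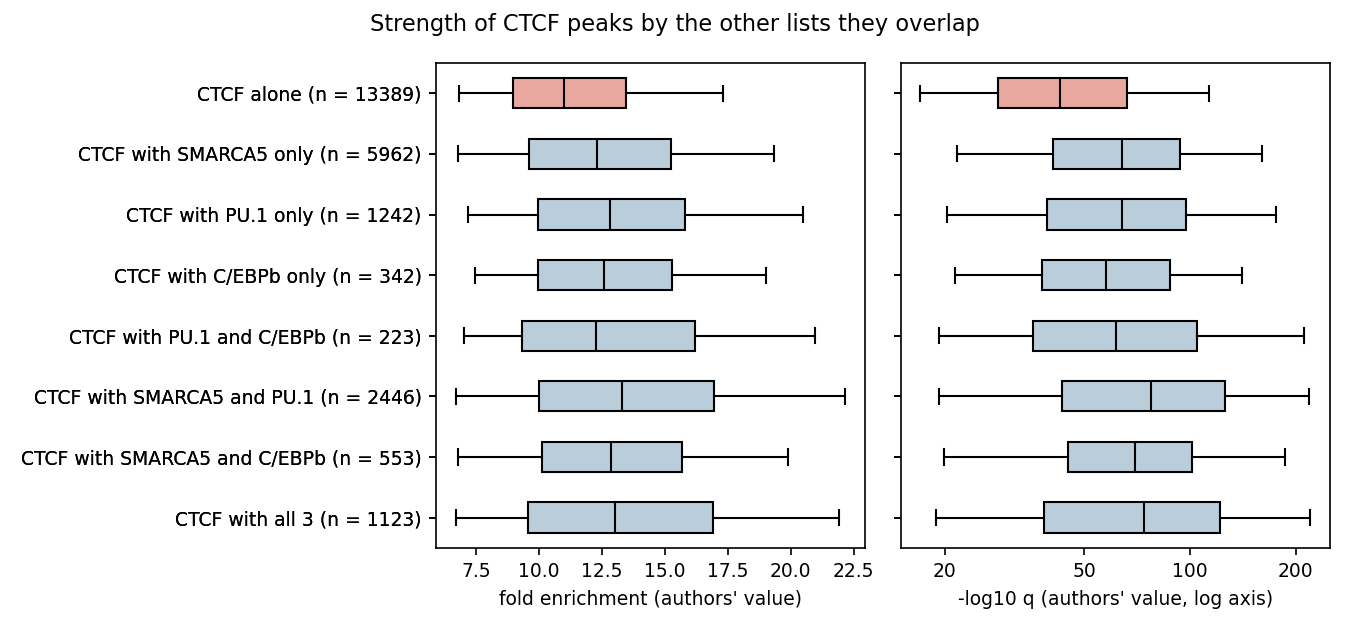
Fold enrichment (left) and -log10 q (right, log axis) of CTCF peaks in 8 classes by the lists they overlap, both as the authors gave them. Boxes span the middle 50% with the median as a line, and whiskers run from the 5th to the 95th percentile. CTCF peaks alone have the lowest median in both panels, 11.0 and 42.8.

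The share of CTCF peaks that stood alone fell toward the strong end of the list. Ranked by -log10 q, 69.9% of peaks in decile 1 were alone, 53.1% in decile 6 and 19.9% in decile 10. The decline ran through every step of this ranking. Ranked by fold enrichment, the share rose first, from 55.9% in decile 1 to 63.8% in decile 3, and then fell to 25.8% in decile 10. Peaks alone were not limited to weak sites: 653 of them lay in the highest decile of fold enrichment, at 17.4 or more, and 503 in the highest decile of -log10 q.

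**Figure D2:**
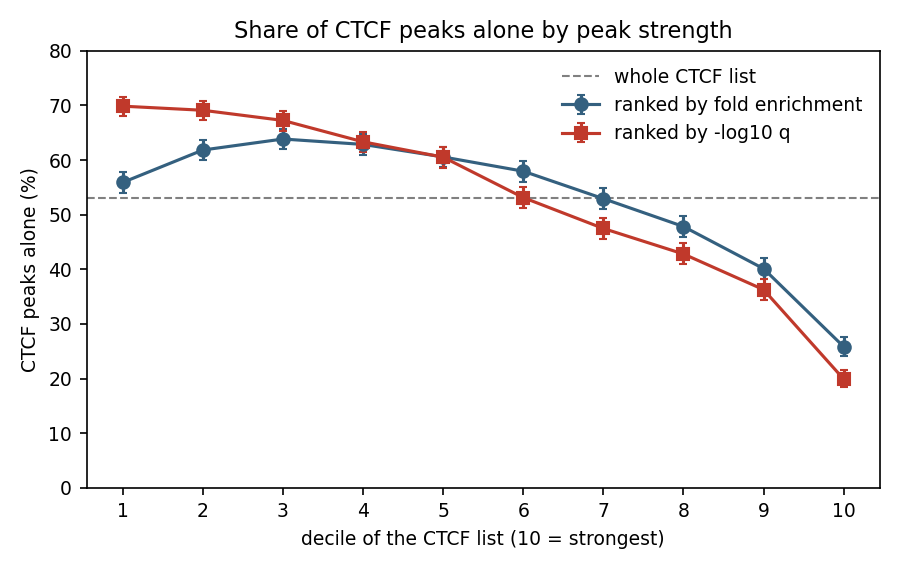
Percentage of CTCF peaks that overlapped no SMARCA5, PU.1 or C/EBPb peak in each decile of the whole CTCF list, ranked by fold enrichment (circles) or by -log10 q (squares). Bars are 95% Wilson intervals for counting error, and the dashed line is the 53.0% of the whole list. By -log10 q the share falls from 69.9% to 19.9%, while by fold enrichment it is highest in decile 3.

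The 2 measures of strength parted at the weak end of the list. In decile 3 by fold enrichment, which held values from 8.73 to 9.75, peaks alone had a median -log10 q of 28.6 and peaks with SMARCA5 only one of 37.9, at median fold enrichments of 9.26 and 9.28. The ratio of these -log10 q medians, SMARCA5 only to alone, was 1.32 there, 1.14 in decile 6 and 1.04 in decile 9. In decile 10 it was 1.13, where the medians were 146.0 and 128.9. At like fold enrichment, peaks alone thus had the lower -log10 q in each of the 10 deciles, by the least in decile 9. Local background and read number per peak were not analysed here.

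**Figure D3:**
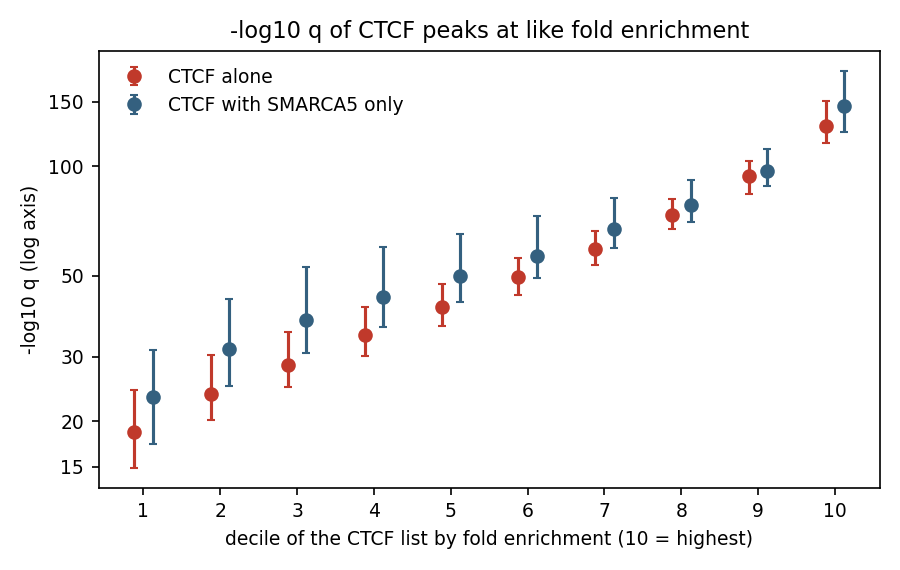
Median -log10 q (log axis) of CTCF peaks alone and of CTCF peaks with SMARCA5 only within deciles of fold enrichment over the whole CTCF list, with bars for the middle 50%. The medians of peaks alone are lower in each decile, and the bars of the 2 classes overlap in each.

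CTCF peaks alone were narrower in the median than CTCF peaks of the other classes, and the rule bears on this, since a wider interval meets other peaks more easily. Their width had a median of 391 bp and a middle 50% of 346 to 436 bp, against 408 bp (364 to 451) with SMARCA5 only. Only 155 peaks alone, or 1.16%, were wider than 600 bp, against 4.73% of the CTCF peaks that met another list. The summit, the position of highest signal, lay a median of 14.0 bp from the middle of the peak, as in the whole CTCF list. Width went with strength among the 13389 members, with a Spearman rho of 0.60 for fold enrichment and 0.59 for -log10 q, and fold enrichment and -log10 q had a rho of 0.88. These correlations are across peaks of 1 list, whose measures share the same reads. In decile 6 of fold enrichment the median width was 400 bp for peaks alone and 399 bp with SMARCA5 only, so at that strength the narrower width was not seen. In decile 2 it was 345 and 353 bp, and in decile 9 it was 450 and 445 bp. Ranked by -log10 q, peaks alone were the wider class in the median in deciles 2 to 9, as at 404 and 394 bp in decile 6. In deciles 1 and 10 of that ranking they were narrower, at 336 and 337 bp and at 473 and 475 bp. The narrower width over all members was thus not seen at most levels of like -log10 q.

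Most CTCF peaks alone lay within 10000 bp of a peak of another list. Gaps from other positions of the genome were not computed, so closeness beyond the density of the lists was not tested. The gap, counted in bases from edge to edge, had a median of 9542 bp to the nearest PU.1 peak, 19159 bp to SMARCA5 and 24416 bp to C/EBPb. PU.1 was the nearest of the 3 lists for 51.8% of members, SMARCA5 for 35.1% and C/EBPb for 13.1%. The PU.1 list is also the longest, with 67674 peaks used here against 37054 for SMARCA5 and 30895 for C/EBPb, and SMARCA5 peaks are broad, with a median width of 2553 bp. Any of the 3 lists came within 1000 bp of 8.37% of members and within 10000 bp of 58.6%. At the far end, 837 members (6.25%) had no such peak within 100000 bp, 106 had none within 500000 bp and 36 none within 1000000 bp.

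**Figure D4:**
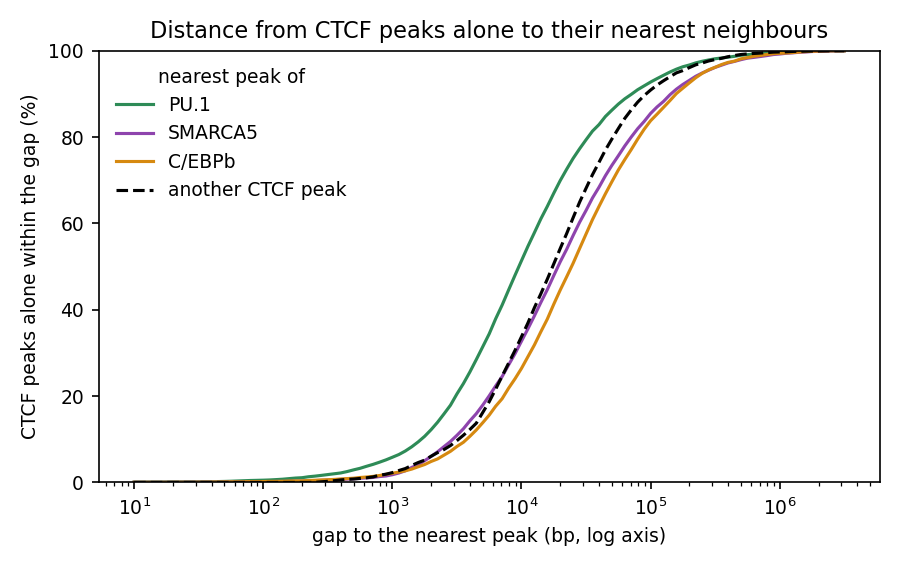
Cumulative percentage of the 13389 CTCF peaks alone whose nearest PU.1, SMARCA5, C/EBPb or other CTCF peak lies within the gap on the log axis. At its median of 9542 bp the PU.1 curve lies to the left of the others, and the C/EBPb curve reaches 50% last, at 24416 bp.

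In the median, the members lay farther from each protein than did the CTCF peaks that lacked that protein but met another. The median gap to PU.1 was 2678.5 bp for CTCF peaks with SMARCA5 only, against 9542 bp for peaks alone. To SMARCA5 it was 14080 bp for CTCF peaks with PU.1 only and 12646.5 bp with C/EBPb only, against 19159 bp. To C/EBPb it was 8104.5 bp with SMARCA5 only and 17449.5 bp with PU.1 only, against 24416 bp. The medians of peaks alone were the longest in these 5 comparisons, while the middle 50% of gaps overlapped in each, as for SMARCA5 at 7239 to 54274 bp for peaks alone and 6641 to 30443 bp with PU.1 only. Of all SMARCA5 peaks, which are broad, 72.6% held PU.1 and 44.4% C/EBPb. The short gaps of CTCF peaks with SMARCA5 only are thus not independent of their class.

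At the border of the rule the counts were small. Counting peaks near 1 list and free of the other 2, 31 members lay 0 to 50 bp from a PU.1 peak and had a median fold enrichment of 10.8, and 29 CTCF peaks that shared 1 to 50 bp with one had 10.8 as well. Their median -log10 q was 43.5 and 54.9. For SMARCA5 there were 13 members at a median fold enrichment of 9.28 and -log10 q of 30.2, and 24 overlapping peaks at 10.0 and 35.5. For C/EBPb these medians were 9.90 and 29.6 in 16 members, and 10.4 and 35.0 in 13 overlapping peaks. Exactly 1 member touched a PU.1 peak with a gap of 0.

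Median strength among the members was highest at middle distances from the other proteins and lower at both ends. By gap to the nearest peak of any of the 3 lists, the median fold enrichment was 10.3 within 1000 bp (1120 members), 11.4 from 10000 to 50000 bp (3981 members) and 10.2 beyond 500000 bp (106 members). The median -log10 q was 41.2 within 1000 bp, 46.0 from 1000 to 5000 bp, 42.8 from 10000 to 50000 bp and 28.4 beyond 500000 bp. Both medians thus rose and then fell with distance, with the highest -log10 q nearer to the other proteins than the highest fold enrichment. The 239 members within 1000 bp of a SMARCA5 peak had the lowest median fold enrichment of any distance group, 8.73 (middle 50% 7.43 to 10.8), with a median -log10 q of 31.9. The 781 members within 1000 bp of a PU.1 peak had medians of 10.6 and 43.1. Over all members the rank correlation with the gap was weak, at 0.054 for fold enrichment and -0.10 for -log10 q.

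The wider surroundings of the members were poorer in the macrophage factors and in SMARCA5. Between 10 and 100 kb from the summit, the median member had 8 PU.1, 4 SMARCA5 and 3 C/EBPb peaks, against 11, 6 and 5 around CTCF peaks with SMARCA5 only. The mean number of CTCF peaks in the same window was 3.64 and 4.07. No PU.1 peak lay in that window for 7.86% of members (1052 peaks) and 0.772% of the peaks with SMARCA5 only. Where the window held 0 PU.1 peaks, 91.1% of all 1155 CTCF peaks were alone, and where it held 20 or more, 36.3% of 1243 were. Over the whole CTCF list the share was 53.0%. PU.1 is part of the rule, so these shares are not independent of it. Among members with 0 and with 20 or more PU.1 peaks in the window, the median fold enrichment was 10.6 and 10.7. Their median -log10 q was 33.2 and 48.4. Of the members, 14.4% had a PU.1 peak within 10000 bp on each side, 5.86% a SMARCA5 peak and 3.56% a C/EBPb peak. These flanking shares are given for members only, so they are not set against other CTCF peaks.

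SMARCA5 peaks close to a member were near the whole SMARCA5 list in strength and in PU.1 and C/EBPb content, and held CTCF somewhat more often. The 2300 SMARCA5 peaks that were the nearest to a member within 5000 bp had a median fold enrichment of 2.08, the same to 3 digits as the whole SMARCA5 list, and a median width of 2403.5 bp against 2553 bp. PU.1 was held by 74.0% of them and C/EBPb by 42.4%, against 72.6% and 44.4% of all SMARCA5 peaks. A CTCF peak of its own was held by 30.6%, against 25.5% of all.

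The median gap between a member and its nearest CTCF peak was longer than that of the other classes. The gap to the nearest CTCF peak of any class had a median of 17436 bp (middle 50% 7184 to 41136 bp) for members, 12960.5 bp with SMARCA5 only and 14231 bp with PU.1 only. CTCF peaks with all 3 came close to the members, at 16806 bp, and those with SMARCA5 and C/EBPb had 15329 bp. Another CTCF peak lay within 1000 bp of 305 members (2.28%) and of 7.63% of peaks with SMARCA5 only. Among the other CTCF peaks free of SMARCA5, the share was close to that of members with PU.1 only, at 2.09%, and with C/EBPb only, at 2.05%. It was higher with PU.1 and C/EBPb, at 5.83% (13 of 223 peaks). At the other end, 9.10% of members and 4.53% of peaks with SMARCA5 only had none within 100000 bp. A broad SMARCA5 peak can cover several CTCF peaks at once, so the rule itself bears on these shares at short range. For 27.2% of members another CTCF peak was nearer than any SMARCA5, PU.1 or C/EBPb peak.

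The closest pair of members lay on chromosome 1, from 133234564 to 133234876 and from 133235119 to 133235452, with 242 bp between them and 590 bp between summits. Their fold enrichments were 10.07 and 10.04. The pair on chromosome 3, from 10371959 to 10372375 and from 10372651 to 10373056, was unequal, at 14.8 and 5.88. The pair on chromosome 17, from 5452383 to 5452672 and from 5452948 to 5453279, was nearly equal, at 10.7 and 11.7. These pairs were chosen after their values were seen. Over all 8096 pairs of consecutive members, the strength of 1 peak said little about the next, with a Spearman rho of 0.030 for fold enrichment and 0.071 for -log10 q.

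Members followed each other along the chromosomes more often than they followed other CTCF peaks. The next CTCF peak was alone for 60.5% of 13377 members and for 44.5% of 11883 other CTCF peaks. Within 1000 bp, where 1 broad peak can cover both, the shares were 81.9% and 6.85%. The difference was also seen at longer range, at 57.2% and 44.7% for gaps of 10000 to 50000 bp and at 65.0% and 48.8% for 100000 to 500000 bp. The members fell into 5293 unbroken runs along the CTCF list, of which 2302 were single peaks. A total of 5117 members, or 38.2%, stood in runs of 5 or more, against 28.9% of the other CTCF peaks in runs of their own. Members are the larger class, which by itself gives longer runs, and the longest run of other CTCF peaks had 24.

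The longest run had 21 members on chromosome 5 from 125566049 to 129059024. Their fold enrichment ranged from 5.93 to 13.7 with a median of 10.1, and 7 SMARCA5, 16 PU.1 and 8 C/EBPb peaks lay between them. The next runs had 19 members each. The run on chromosome 6 from 92418280 to 97004665 enclosed 12 SMARCA5 and 25 PU.1 peaks, and the run on chromosome X from 133825842 to 135500543 enclosed 3 and 10. Runs of members were thus not free of the other proteins: of 1793 runs of 3 or more, 137 enclosed no peak of the other 3 lists.

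Chromosome X held the highest share of CTCF peaks alone, 68.2% (395 of 579, interval 64.3 to 71.9). On the 19 autosomes the share ran from 47.1% on chromosome 19 to 56.8% on chromosome 12. Peaks were sparse on X in all 4 lists, with 3.55 CTCF, 4.67 SMARCA5, 9.63 PU.1 and 4.09 C/EBPb peaks per Mb. The lowest autosomal densities were 7.58, 12.1, 22.3 and 10.6 per Mb. Members on X had a median fold enrichment of 11.4, just above the autosomal range of 10.7 to 11.3, but a median -log10 q of 31.5, below the autosomal range of 41.0 to 47.5. CTCF peaks with SMARCA5 only on X were also low in -log10 q, at 41.4 over 66 peaks against 58.8 to 72.1 on autosomes. Gaps from X members to other proteins were long, with medians of 46177 bp to SMARCA5 and 58932 bp to C/EBPb. Chromosome 11 had the most members per Mb, 8.20, and the shortest median gap to SMARCA5 of any autosome, 12290.5 bp. It was also the densest autosome in CTCF, SMARCA5 and PU.1 peaks, at 16.5, 21.9 and 38.6 per Mb. Its share of CTCF peaks alone, 49.7%, was below that of the whole CTCF list.

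**Figure D5:**
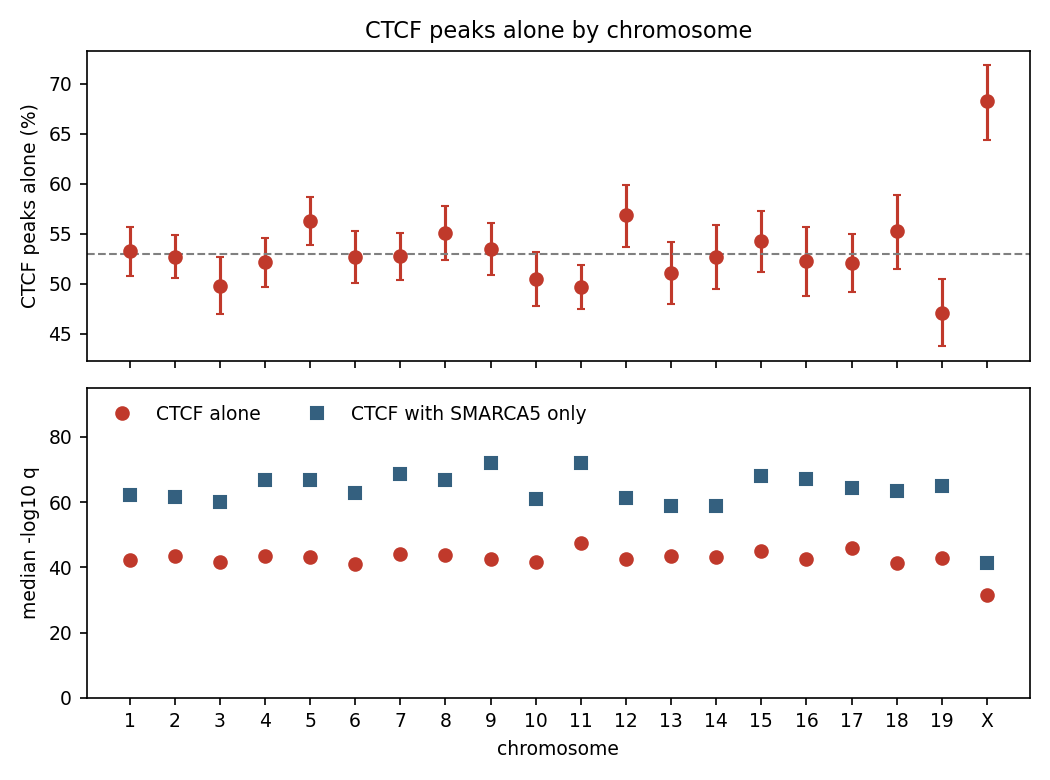
Percentage of CTCF peaks alone on each chromosome with 95% Wilson intervals for counting error (top, dashed line at the 53.0% of all CTCF peaks), and median -log10 q of CTCF peaks alone and of CTCF peaks with SMARCA5 only (bottom). Chromosome X has the highest share alone, 68.2%, and the lowest medians, 31.5 and 41.4.

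Among the 5 members with the highest fold enrichment, 2 stood far above the rest. Those on chromosome 12 from 3159872 to 3160117 and chromosome 6 from 103626012 to 103626254 had 36.8 and 36.5, with -log10 q of 4643.51 and 4713.78 at widths of only 246 and 243 bp. Their -log10 q values were the only ones above 2000 among the members, and the next highest was 392.7. No list of artefact-prone regions was applied here, and whether these 2 peaks are artefacts was not tested. The remaining 3 of the first 5 were at 24.5 to 27.9. The peak on chromosome X from 158770883 to 158771363 had 27.9 and lay 11.8 kb from SMARCA5, 12.8 kb from PU.1 and 13.0 kb from C/EBPb. A peak on chromosome 10 from 17930887 to 17931429, at 24.7, lay 2.86 kb from SMARCA5, with no other CTCF peak within 141.6 kb. On chromosome 3 from 83680447 to 83680720 the fold enrichment was 24.5 at a width of 274 bp. By -log10 q, the leading members after the first 2 were on chromosome 19 from 10217935 to 10218457, at 392.7, and on chromosome 2 from 31181432 to 31181880, at 357.7. The first of these lay 221 bp from a PU.1 peak and the second 5916 bp.

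The most isolated members were of modest strength. A peak on chromosome 14 from 93001823 to 93002153 lay 2954 kb from the nearest PU.1 peak, 3162 kb from SMARCA5 and 2331 kb from the nearest CTCF peak, with a fold enrichment of 10.2. Its neighbour in the CTCF list, from 90670562 to 90670951, was the next most isolated, 2535 kb from PU.1, at 8.87. On chromosome 5, peaks from 83588077 to 83588483 and from 83631997 to 83632354 were 43.5 kb apart and lay 2138 and 2182 kb from the nearest peak of the other 3 lists, with fold enrichments of 12.7 and 8.81. The remaining one, on chromosome 8 from 50745175 to 50745590, had 9.55 and lay 2182 kb from PU.1. These 5 ranked between percentiles 23.2 and 69.0 of the members by fold enrichment. By -log10 q their percentiles were 16.6 and 9.01 on chromosome 14, 57.3 and 10.8 on chromosome 5, and 46.5 on chromosome 8. Genes at the named positions, exons, introns and the CTCF motif were not analysed here, since no mm39 annotation or sequence was at hand.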

How the data were processed

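Consensus peak lists of the whole series were used for CTCF, PU.1 and C/EBPb (narrow peaks) and SMARCA5 (broad peaks). The submitters' processing notes name the build mm39 and the programs deepTools 3.5.1, MACS2 2.2.7.1, Picard 2.27.4 and STAR 2.7.9a. What each program did, and how a consensus was made, is not given in the sources used here. The deposited fold enrichment is taken to be a ratio over local background. The deposited -log10 q and score (about 10 times the former) are, like it, the authors' values per peak, and were used only to describe or rank peaks within a list.

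Intervals were compared with Python 3.11.15, NumPy 2.4.6, pandas 2.3.3 and SciPy 1.17.1, and these steps were tested on simulated intervals. Overlap meant at least 1 shared base, and a gap is the number of bases between edges. Wilson intervals are 95%. Named regions are the first 5 members by fold enrichment, by -log10 q and by gap to the other lists, and the 3 longest runs. Members, lists and alternatives were chosen with earlier results of these data known. Genotypes and stimuli were not compared, because no value could be tied to a library. The gene and promoter tables at hand are on GRCm38.p6 and were not used. Plots were drawn with matplotlib 3.10.9.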

Additional observations from a re-analysis of the deposited data

How the results depend on the processing

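Each of 9 summary values was recomputed under 7 other settings, and 35 of 63 values stayed within the interval of the reported value or, for the number of members, within 1.5 times it. These intervals, for the medians too, rest on peaks of 1 list and hold no variation between libraries. Leaving out peaks with -log10 q above 2000 moved none of the 9. With chromosomes 1 to 19 only, the median -log10 q was 43.4 against 42.8. The 3 other definitions of overlap moved the share of CTCF peaks alone and the median gaps to SMARCA5, PU.1 and C/EBPb. With 50% of the shorter peak these were 54.7%, 18460, 9102 and 23671 bp. With the CTCF summit inside the other peak they were 55.0%, 18344, 9056 and 23568 bp. With peaks within 1000 bp counted as shared they were 48.5%, 20659, 10812 and 26315 bp, as the rule of that setting implies. With the upper 50% of the SMARCA5 list, 63.9% of CTCF peaks were alone, with a median fold enrichment of 11.1, -log10 q of 45.5, width of 393 bp and gaps of 16396 bp to CTCF, 31956 bp to SMARCA5, 7531 bp to PU.1 and 19257 bp to C/EBPb. With the upper 50% of the CTCF list, 5679 peaks or 44.9% were alone, with a median fold enrichment of 13.9, -log10 q of 69.3, width of 428 bp and gaps of 35604 bp to CTCF and 9952 bp to PU.1, from a list that holds fewer and stronger peaks by construction. No paired analysis was possible because 0 columns of the consensus lists belong to a single library. The number of members also depends on how deep each list reaches, and read depth was not at hand.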

Other observations

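The decimals of the deposited score differed in share between CTCF peaks alone and CTCF peaks with SMARCA5 only, but not in 1 direction at like -log10 q. Scores with a decimal part of 0.25 or 0.75 were found for 4531 CTCF peaks alone, or 33.8%, and for 41.7% of CTCF peaks with SMARCA5 only. The other scores were whole or ended in 0.5. For members with such a decimal part the medians were 12.2 for fold enrichment and 55.6 for -log10 q, against 10.3 and 36.5 for the other members. The share with such decimals grew with strength, from 8.78% of members in decile 1 of fold enrichment to 51.3% in decile 10. In decile 3 it was 26.3% for members and 38.5% for peaks with SMARCA5 only, and in decile 10 it was 51.3% and 50.7%. Ranked by -log10 q, the share of members was the lower in deciles 1, 2, 4, 5, 6 and 10, as at 40.4% and 45.0% in decile 5. It was the higher in deciles 3, 7, 8 and 9, as at 52.2% and 48.6% in decile 9. How the scores were made is not given in the sources used here.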
